A study of Mus musculus with 18 samples.

Results

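In MC38 tumours of mice given an agonist anti-CD40 antibody, adding the MEK inhibitor GDC-0623 came with lower transcripts for cell division and cholesterol synthesis and with higher transcripts for fibroblasts and matrix, complement, acute-phase receptors and some tissue-macrophage markers. The comparison uses the arrays whose titles name MEKi+CD40 1 to 4 and CD40 1 to 4, which are 8 of the 18 arrays of the series. MC38 is a mouse colon carcinoma line. It had been injected with Matrigel subcutaneously into C57BL/6-Ly5.1 mice of 6 to 12 weeks, and each array holds the RNA of a piece of snap-frozen whole tumour from a different animal, taken on day 22 after injection.

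The 4 anti-CD40 tumours came from mice given vehicle and anti-CD40 (a mouse IgG1, clone 3/23), and the 4 MEKi/CD40 tumours from mice given 30 mg/kg GDC-0623 daily and the same antibody. All 8 mice therefore carried the antibody, on treatment days 3, 5 and 7 and again on the eve of sampling, so the contrast is the addition of the inhibitor and not the combination against no treatment. The other 10 arrays, 5 from mice given vehicle with control IgG (control) and 5 from mice given GDC-0623 with control IgG (MEKi), are used where the inhibitor was given without the antibody. The animal numbers in the titles form separate series for the anti-CD40 and the MEKi/CD40 mice, so anything else that differed between these series of animals cannot be told apart from the treatment.

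MEK is the kinase that phosphorylates and activates ERK, downstream of receptor tyrosine kinases, RAS and RAF. ERK drives cell cycle entry and growth in tumour cells and also acts in fibroblasts, macrophages and T cells. CD40 is a receptor of the TNF receptor family on dendritic cells, macrophages and B cells, and an agonist antibody stands in for the CD40 ligand of helper T cells to license antigen presentation. A whole tumour holds all these cells at once. In such bulk RNA a lower number of cells of a type and less RNA per cell cannot be told apart, and this holds for every result given here.

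Values are log2 signal intensities of 1 probe set per gene, chosen as the brightest over the series, so a difference of 1 is a doubling. About 53.2 to 55.2% of probe sets sat at the floor of the scale on each of the 8 arrays, that is, below 3 or at a low value repeated across arrays. Differences are MEKi/CD40 minus anti-CD40 with the standard error of the fit (n = 4 and 4), and p-values are from limma, adjusted by Benjamini-Hochberg over all probe sets. Arrays correlated at 0.9955 to 0.9983 within the anti-CD40 group, at 0.9865 to 0.9956 within MEKi/CD40 and at 0.9789 to 0.9897 between them. The median SD of a gene above the floor was 0.132 among anti-CD40 tumours and 0.204 among MEKi/CD40 tumours, over 10163 genes. Of 593 list genes 295 had a further probe set, and for 23 genes not called here a further probe set was called, while for 0 called genes a further one was called the other way.

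Which genes stood highest and lowest when the inhibitor was added? Of 45037 probe sets, 5231 passed at an adjusted p under 0.05 (11.6%), 1991 of them higher and 3240 lower. By gene, 1031 of 18193 were called higher (5.67%) and 1656 lower (9.1%), and these shares are the background against which the gene groups are read. The count depended on single tumours, falling to 2704 probe sets without anti-CD40 2, 2866 without anti-CD40 3, 3414 without anti-CD40 4 and 3421 without MEKi/CD40 1.

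The largest rise was that of Pi16, a marker of adventitial fibroblasts found in many tissues. It read 3.27, 3.15, 3.90 and 2.87 in anti-CD40 tumours 1 to 4 and 10.89, 10.47, 11.80 and 10.09 in MEKi/CD40 tumours 1 to 4, a rise of 7.52 ± 0.42 (adjusted p = 0.00197). Efemp1, a fibulin of the extracellular matrix, read 3.71, 2.80, 5.90 and 2.89 against 9.99, 11.36, 11.38 and 10.35, a rise of 6.95 ± 0.78 (adjusted p = 0.00479). Clec3b (tetranectin), a plasminogen-binding lectin of fibroblasts, was at the floor value of 2.48 in all 4 anti-CD40 tumours and read 8.07, 8.87, 9.38 and 8.43 with the inhibitor, at least 51.5-fold higher (adjusted p = 0.00132). None of the 3 genes had overlapping groups, and the anti-CD40 tumours read low, with Efemp1 in anti-CD40 3 (5.90) the highest of them.

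The other 7 of the 10 largest rises were Cbr2 (6.06 ± 0.52), the matrix glycoprotein Tnxb (at least 37.4-fold), Ccdc80 (5.88 ± 0.94), the growth factor Igf1 (5.76 ± 1.05), the adhesion receptor Adgrd1 (5.75 ± 0.40), Itih5, which binds hyaluronan (5.71 ± 0.81), and the pentraxin Ptx3 (5.60 ± 1.03). Anti-CD40 3 read higher than the other 3 antibody-treated tumours in several of them, at 8.39 for Ccdc80 (others 4.21 to 5.09), 6.67 for Igf1 (2.65 to 3.38), 5.79 for Itih5 (2.65 to 3.97) and 7.03 for Ptx3 (3.01 to 3.93). Without anti-CD40 1, 2 or 4 or MEKi/CD40 2, the calls of Igf1 (adjusted p up to 0.0655) and Ptx3 (up to 0.0598) were lost, and the calls of the other 8 held in all 8 such fits.

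The deepest fall was in Nptx1, a neuronal pentraxin. It read 11.10, 10.33, 10.51 and 10.23 in the anti-CD40 tumours and 5.26, 3.40, 3.13 and 4.13 in the MEKi/CD40 tumours, a fall of 6.56 ± 0.50 on the log2 scale (adjusted p = 0.00267) with no overlap. A dimmer Nptx1 probe set, looked at after its values were seen, was called lower by less (-3.70, means of 8.22 and 4.52). Next came the inducible chaperone Hspa1a (-3.84 ± 0.46, adjusted p = 0.0058), the troponin Tnnt2 (-3.76 ± 0.54), the epithelial protease inhibitor Spint1 (-3.46 ± 0.62), Adamtsl3 (-3.41 ± 0.72), the lectin-like receptors Klra17 (-3.36 ± 0.82) and Klrb1b (-3.26 ± 0.47), the purinergic receptor P2ry12 (-3.23 ± 0.52), and 2 enzymes of isoprenoid synthesis, Idi1 and Fdps, given with the sterol genes. Of these, Spint1 lost its call without anti-CD40 2, 3 or 4 (adjusted p up to 0.0609), Adamtsl3 without anti-CD40 2 or 3 or any MEKi/CD40 tumour (up to 0.0934), and Klra17 when any tumour but MEKi/CD40 3 was left out (up to 0.136).

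**Figure D1:**
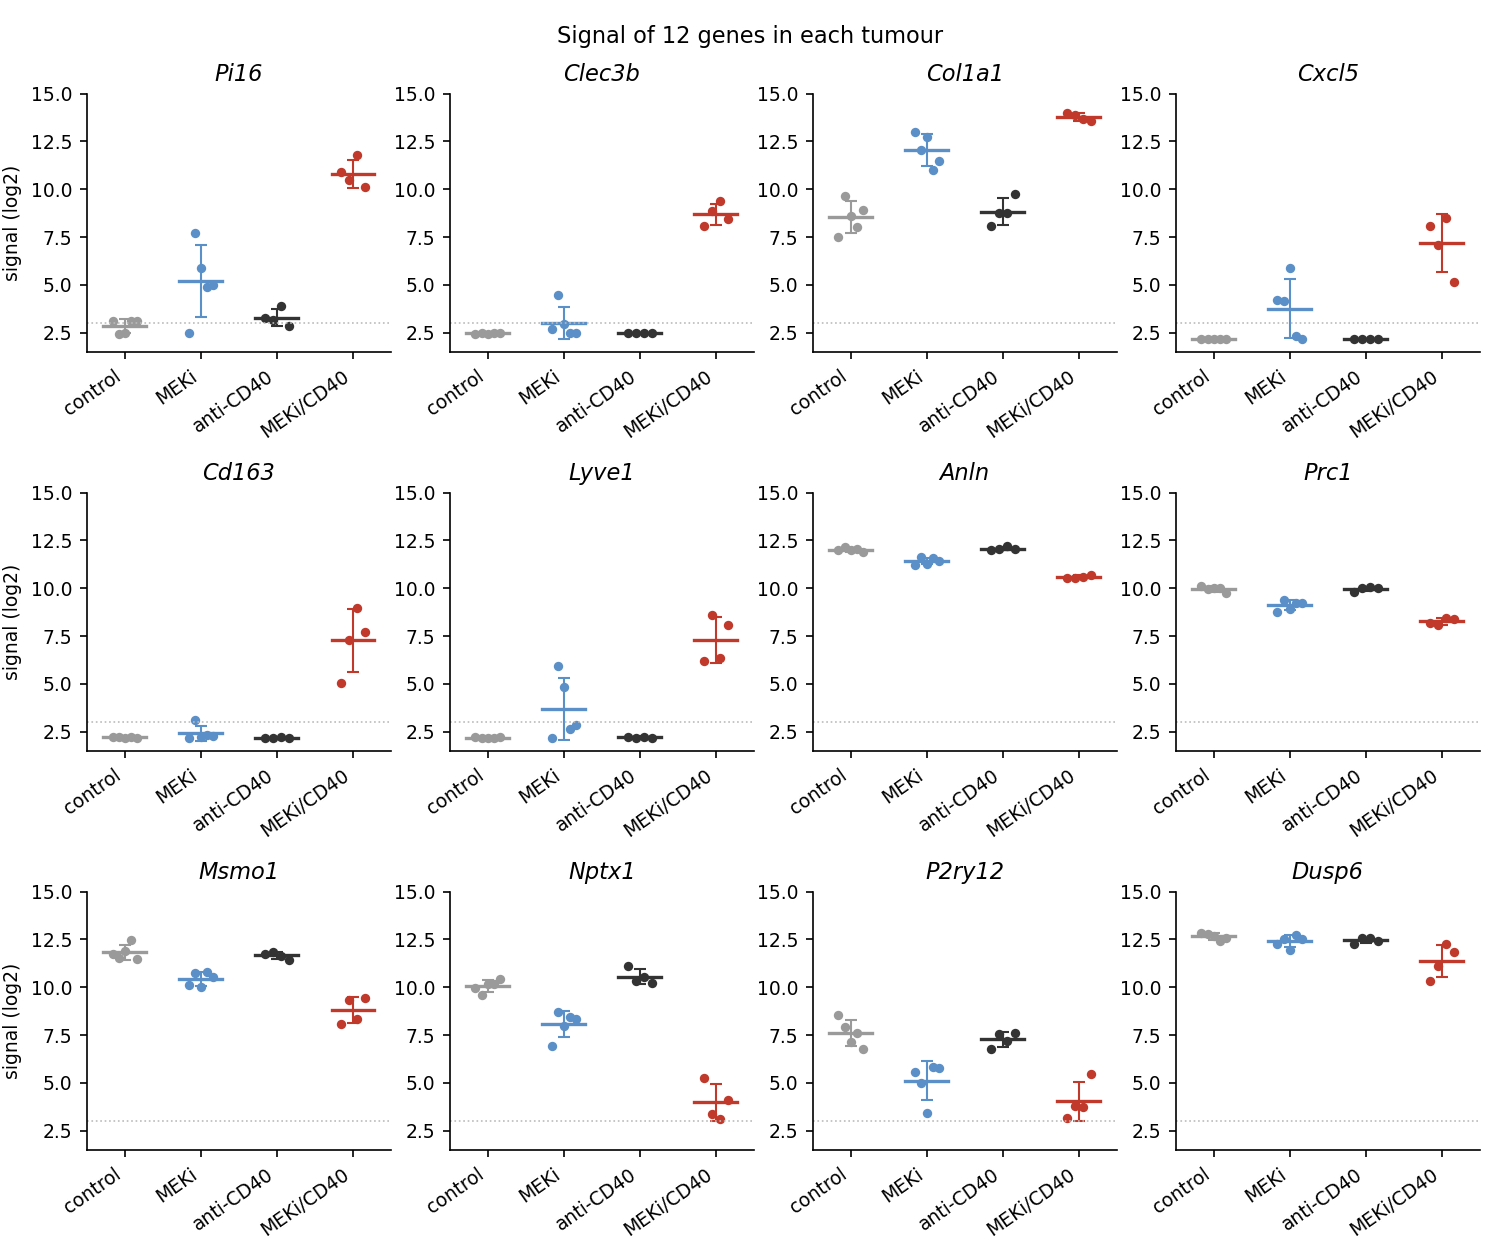
Log2 signal intensity (vertical axis) of named genes in each tumour of the control, MEKi, anti-CD40 and MEKi/CD40 groups (n = 5, 5, 4 and 4). Points are tumours, bars are the mean ± SD and the dotted line is the floor at 3. Pi16 and Clec3b lie at or near the floor in the anti-CD40 tumours and between 8.07 and 11.80 in the MEKi/CD40 tumours. Anln is 10.51 to 10.71 in the MEKi/CD40 tumours against 11.98 to 12.19 in the anti-CD40 tumours.

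Was the readout of ERK activity lower? Dusp6, the phosphatase that ERK induces and that switches ERK off, read 12.28, 12.55, 12.55 and 12.41 with the antibody alone and 10.33, 11.09, 12.26 and 11.82 with the inhibitor added. All 4 MEKi/CD40 tumours lay below all 4 others, tumour 1 the most and tumour 3 the least, but the difference of -1.07 ± 0.42 did not pass (adjusted p = 0.184). The ETS factor Etv5 read 8.39, 8.85, 9.70 and 9.89 against 10.42 to 10.65, again without overlap (-1.37 ± 0.35, adjusted p = 0.0561). A dimmer probe set of Etv5, looked at after its values were seen, read 3.86, 3.63, 4.62 and 4.77 against 5.58 to 6.10 and was called lower (-1.56 ± 0.29, adjusted p = 0.0213). Dusp4 differed by -0.62 ± 0.17 (adjusted p = 0.071) and the cyclin Ccnd1 by -0.56 ± 0.25 (adjusted p = 0.254), both without overlap. The groups did not overlap for 7 of the 22 measured ERK feedback and target genes, against 22.5% of all genes.

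Spry4, a feedback inhibitor of RAS signalling, was 5.40 in MEKi/CD40 1 and exactly 6.62 in the other 3 MEKi/CD40 tumours, a value that 2 of the anti-CD40 tumours also showed, so the probe set carried little range. Of 22 measured ERK feedback and target genes, 1 was higher (Phlda1, 0.80 ± 0.18, adjusted p = 0.0373) and 1 lower (Myc, -0.52 ± 0.12, adjusted p = 0.0415), 15 differences were negative, and their median was -0.43 against a median of 0 over all genes. The shares called over all genes were 5.67% higher and 9.1% lower. Phlda1 lost its call without anti-CD40 2, 3 or 4 or MEKi/CD40 2, 3 or 4 (adjusted p up to 0.109), and Myc without anti-CD40 1, 2 or 3 or MEKi/CD40 1, 2 or 4 (up to 0.12). The ERK target score, the mean of the list's members on an array, ran from 7.92 in MEKi/CD40 1 to 9.11 in MEKi/CD40 3, a range that held all 4 anti-CD40 tumours (8.68 to 9.05). None of the 10 measured genes of the pathway's own proteins, such as Nras, Braf and Map2k1, passed in limma (median 0.02, from -0.45 to 0.32, 2 at an unadjusted p under 0.05).

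The clearest set of falls was in cell division. All 31 measured genes of mitosis and the G2/M transition were called lower, against 9.1% of all genes, with differences from -2.16 to -1.0 (median -1.60). The groups did not overlap for any of them, against 22.5% of all genes without overlap. Anln (anillin), the scaffold of the contractile ring in cytokinesis, had the smallest p of the group. It read 11.98, 12.06, 12.19 and 12.06 in the anti-CD40 tumours and 10.55, 10.51, 10.60 and 10.71 in the MEKi/CD40 tumours, a fall of 1.48 ± 0.06 on the log2 scale or 2.79-fold (adjusted p = 0.00132).

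Prc1, which bundles the microtubules of the central spindle, read 9.80, 10.02, 10.05 and 10.00 against 8.20, 8.07, 8.42 and 8.37, a fall of 1.70 ± 0.10 (adjusted p = 0.00198). The phosphatase Cdc25c, which opens mitosis by activating CDK1, read 7.19, 7.49, 7.47 and 7.19 against 5.04, 4.85, 5.17 and 5.63 (-2.16 ± 0.18, adjusted p = 0.00284), and the chromokinesin Kif4 fell by 1.49 ± 0.11 (adjusted p = 0.0026). In these 4 genes the spread within a group was small beside the distance between groups, and the 4 MEKi/CD40 tumours lay close together. Mki67, the proliferation marker Ki-67, was 10.93, 11.48, 11.54 and 11.47 against 10.14, 9.96, 10.78 and 10.56 (-1.0 ± 0.23, adjusted p = 0.0409), a call lost without anti-CD40 2, 3 or 4 or MEKi/CD40 1, 2 or 4 (adjusted p up to 0.119). Leaving out each tumour in turn gave 26 to 31 calls in the list, 25 were made without MEKi/CD40 2 and 4 together, and 20 with the adipocyte score as covariate.

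Many promoters of mitotic genes hold a pair of short motifs, the CHR element TTTGAA and the CCAAT box, so the promoters of the genes above were read for these letters on either strand. The window ran from 250 bases before to 50 after the annotated start (RefSeq, GRCm38.p6), which was held for 25 of the 31 mitosis genes. The promoters of Anln (chr9:22389157-22389456, minus strand) and Prc1 (chr7:80294201-80294500, plus strand, the first of 2 annotated starts) are shown because they belong to the falls with the smallest p of this group, with the motifs in capitals, TTCAAA and ATTGG being the other strand of the same motifs.
Anln: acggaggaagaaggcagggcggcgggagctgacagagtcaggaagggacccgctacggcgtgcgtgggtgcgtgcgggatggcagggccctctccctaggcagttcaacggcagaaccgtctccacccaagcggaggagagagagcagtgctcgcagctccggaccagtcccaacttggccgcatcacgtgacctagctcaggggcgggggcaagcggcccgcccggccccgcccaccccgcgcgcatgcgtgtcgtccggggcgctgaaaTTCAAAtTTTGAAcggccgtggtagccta
Prc1: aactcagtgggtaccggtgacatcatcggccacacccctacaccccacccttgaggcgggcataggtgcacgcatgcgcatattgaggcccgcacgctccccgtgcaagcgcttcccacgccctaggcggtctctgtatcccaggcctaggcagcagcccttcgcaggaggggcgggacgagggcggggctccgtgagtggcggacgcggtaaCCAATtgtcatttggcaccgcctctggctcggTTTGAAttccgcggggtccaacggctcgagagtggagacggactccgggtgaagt

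In Anln the CHR letters stood on both strands, 22 and 29 bases after the start, and no CCAAT was in the window. In Prc1 a CCAAT began 37 bases and a TTTGAA 5 bases before the start. TTTGAA was in 19 of the 25 mitosis promoters (76%), in 2 of 23 promoters of the G1/S list, in 5 of 11 of the fibroblast and matrix list, whose genes rose, and in 17.9% of all 32851 promoters of the table. CCAAT was in 19 of 25 mitosis promoters as well, in 14 of 23 of the G1/S list, in 2 of 11 of the fibroblast and matrix list and in 37.4% of all promoters. Counted per measured gene, as the lists are, the shares over 14452 genes were 15.7% for TTTGAA and 42.0% for CCAAT. These counts describe letters and name no bound factor.

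Genes of the earlier step, DNA replication, were lower by less. Of 28 measured G1/S and replication genes 13 were called lower and 0 higher, and 27 of the 28 differences were negative (median -1.03, range -1.69 to 0.10). The polymerase subunit Pole2 read 9.66, 9.65, 9.61 and 9.46 against 8.17, 8.47, 8.85 and 8.50 (-1.10 ± 0.14, adjusted p = 0.00682). The clamp loader subunit Rfc4 fell by 1.30 ± 0.18, the primase Prim1 by 1.22 ± 0.20 and the kinase Cdk4 by 0.42 ± 0.06. MEKi/CD40 3 read the highest of its group for Pole2, Rfc4 and Prim1 (9.24 for Rfc4, 9.75 for Prim1), though still below every anti-CD40 tumour. Without MEKi/CD40 3, 26 of the 28 were called, and the count was 4 without anti-CD40 2 or 3, 5 without anti-CD40 4 or MEKi/CD40 2, and 7 without MEKi/CD40 1 or 4. Without MEKi/CD40 2 and 4 together it was 0 in limma (median -0.85), and with the adipocyte score as covariate 3 (median -0.94).

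Of 12 genes that hold cells out of the cycle, 2 rose. Cdkn1c (the CDK inhibitor p57) read 4.85, 5.34, 4.58 and 5.30 against 7.12, 7.69, 7.32 and 6.05 (2.03 ± 0.39, adjusted p = 0.0219), and Gas1, a growth-arrest gene, rose by 1.00 ± 0.21 (adjusted p = 0.0313). Cdkn1c lost its call on leaving out any anti-CD40 tumour or MEKi/CD40 1 or 2 (adjusted p up to 0.0688), and Gas1 on leaving out any tumour but MEKi/CD40 3 (up to 0.0855). Of 24 ribosome biogenesis genes 6 were lower (median -0.51), among them the nucleolar chaperone Npm1 (14.79 to 14.86 against 14.35 to 14.63, -0.37 ± 0.06, adjusted p = 0.0132). Without MEKi/CD40 3 the count was 17, and it was 4 without anti-CD40 1, 2 without anti-CD40 4 or MEKi/CD40 2 or 4, and 1 without anti-CD40 2 or 3 or MEKi/CD40 1, without MEKi/CD40 2 and 4 together, or with the covariate.

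Cholesterol synthesis, the second group with deep falls, runs from acetyl-CoA over mevalonate and the isoprenoids to sterols. Of 17 measured enzymes 11 were called lower, 0 higher and 16 differences were negative (median -1.47). For 15 of them the groups did not overlap, against 22.5% of all genes. Msmo1, a sterol demethylase, read 11.75, 11.86, 11.64 and 11.43 against 8.10, 9.33, 8.34 and 9.44, a fall of 2.87 ± 0.34 (adjusted p = 0.00558). Fdps, which makes farnesyl diphosphate, read 12.98, 13.31, 13.14 and 12.77 against 9.10, 10.79, 8.81 and 11.04 (-3.12 ± 0.57, adjusted p = 0.0189). Idi1, the isomerase before it, read 10.94, 11.17, 10.93 and 10.71 against 6.60, 8.94, 6.46 and 8.61 (-3.29 ± 0.64, adjusted p = 0.0237). In all 3 genes MEKi/CD40 1 and 3 lay below MEKi/CD40 2 and 4, which were also the 2 tumours of the comparison with the highest adipocyte scores.

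Fdft1 (squalene synthase, -2.39 ± 0.41) and Mvd (-1.92 ± 0.30) completed the named members. Without MEKi/CD40 2 and 4 the median of the list was -2.14 with 13 genes called, and with the adipocyte score as covariate it was -2.01 with 11 called. Losing other tumours cut the count to 2 without anti-CD40 2 or 3, 3 without anti-CD40 1 or MEKi/CD40 1, and 4 without anti-CD40 4. Idi1 and Fdps lost their calls on leaving out any anti-CD40 tumour or MEKi/CD40 1 (adjusted p up to 0.077 and 0.0647), and Fdft1 without anti-CD40 2 or 3 (up to 0.057). CCAAT was in the promoter window of 14 of the 14 sterol genes with a promoter held here, against 42.0% of measured genes, and TTTGAA in 1. The promoters of Msmo1 (chr8:64733529-64733828, minus strand) and Idi1 (chr13:8885356-8885655, plus strand) are shown for the repeated boxes.
Msmo1: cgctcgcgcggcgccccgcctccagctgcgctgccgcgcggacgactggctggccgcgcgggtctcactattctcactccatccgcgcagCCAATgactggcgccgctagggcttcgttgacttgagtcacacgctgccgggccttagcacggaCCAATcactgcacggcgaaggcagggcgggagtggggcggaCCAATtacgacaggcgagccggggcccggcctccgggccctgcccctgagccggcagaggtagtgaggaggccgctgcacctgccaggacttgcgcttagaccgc
Idi1: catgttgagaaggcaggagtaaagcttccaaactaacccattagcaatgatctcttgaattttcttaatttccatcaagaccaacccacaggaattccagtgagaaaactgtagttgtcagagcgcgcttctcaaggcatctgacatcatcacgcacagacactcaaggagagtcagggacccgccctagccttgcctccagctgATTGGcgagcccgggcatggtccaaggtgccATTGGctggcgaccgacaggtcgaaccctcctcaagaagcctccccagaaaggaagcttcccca

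The box stood 160, 96 and 55 bases before the start of Msmo1, and 45 and 14 bases before that of Idi1 on the other strand.

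Among the rises, fibroblast genes led. Universal fibroblast markers are genes such as Pi16, Cd34 and Clec3b that mark resting fibroblasts of the vessel surroundings and fascia in many organs. Of the 13 measured, 11 were called higher against 5.67% of all genes and 0 lower, and the median difference was 2.66. With the mean over all probe sets of a gene the median was 1.54. The 2 not called were Cd34 and Has1. The mean log2 value of all 13 was 7.80 to 8.08 in the anti-CD40 tumours and 10.55 to 11.01 in the MEKi/CD40 tumours. Beyond Pi16, Clec3b and Efemp1, the pericyte and fibroblast surface protein Cd248 (endosialin) read 7.29, 6.99, 7.06 and 7.92 against 10.49, 10.36, 9.43 and 10.14 (2.79 ± 0.31, adjusted p = 0.00456).

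Of 19 genes for fibroblasts and matrix proteins, 11 were higher, 0 were lower and all 19 differences were positive (median 1.16, range 0.45 to 5.13). Col1a1, which encodes the major type I collagen chain, read 8.06, 8.74, 8.77 and 9.75 with the antibody alone and 14.00, 13.90, 13.68 and 13.56 with the inhibitor added, a rise of 4.96 ± 0.35 or 31.0-fold (adjusted p = 0.0026). Another Col1a1 probe set, looked at after its values were seen, was called higher by less (3.53, means of 9.14 and 12.67). Mfap5, a microfibril protein, read 5.60, 5.49, 7.40 and 4.82 against 10.83, 11.50, 11.03 and 10.46 (5.13 ± 0.58, adjusted p = 0.00478). Col5a1, which starts collagen fibrils, rose by 1.32 ± 0.11 (adjusted p = 0.00269), and Sparc, a matrix protein that many cells secrete, by 0.89 ± 0.10. The groups did not overlap for these 4 genes and for 15 of the 19 in all, against 22.5% of all genes.

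Of 12 contractile markers of myofibroblasts and pericytes 2 were called higher, with a median of 0.16 (-0.16 with dim probe sets left out). Acta2 (smooth muscle actin), the defining myofibroblast marker, is among those not called, since its chosen probe set was at the floor. Another Acta2 probe set, passed over for its _s_ mark and looked at after its values were seen, read 9.24, 8.44, 9.65 and 10.08 against 11.66, 10.75, 12.65 and 11.57 and was called higher (2.31 ± 0.51, adjusted p = 0.0355). Myl9 was at 2.16 in all anti-CD40 tumours and 3.92, 4.72, 6.21 and 4.22 in the others (at least 3.4-fold), and Actg2 was at least 2.01-fold higher. Both calls were lost on leaving out any anti-CD40 tumour, that of Myl9 also without MEKi/CD40 2 (adjusted p up to 0.0685) and that of Actg2 without MEKi/CD40 1 or 3 (up to 0.0897). Without MEKi/CD40 2 and 4 the medians were 2.64 for the universal fibroblast list (3 called) and 1.12 for the matrix list (3 called). With the adipocyte score as covariate they were 2.34 (5 called) and 1.06 (7 called).

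**Figure D2:**
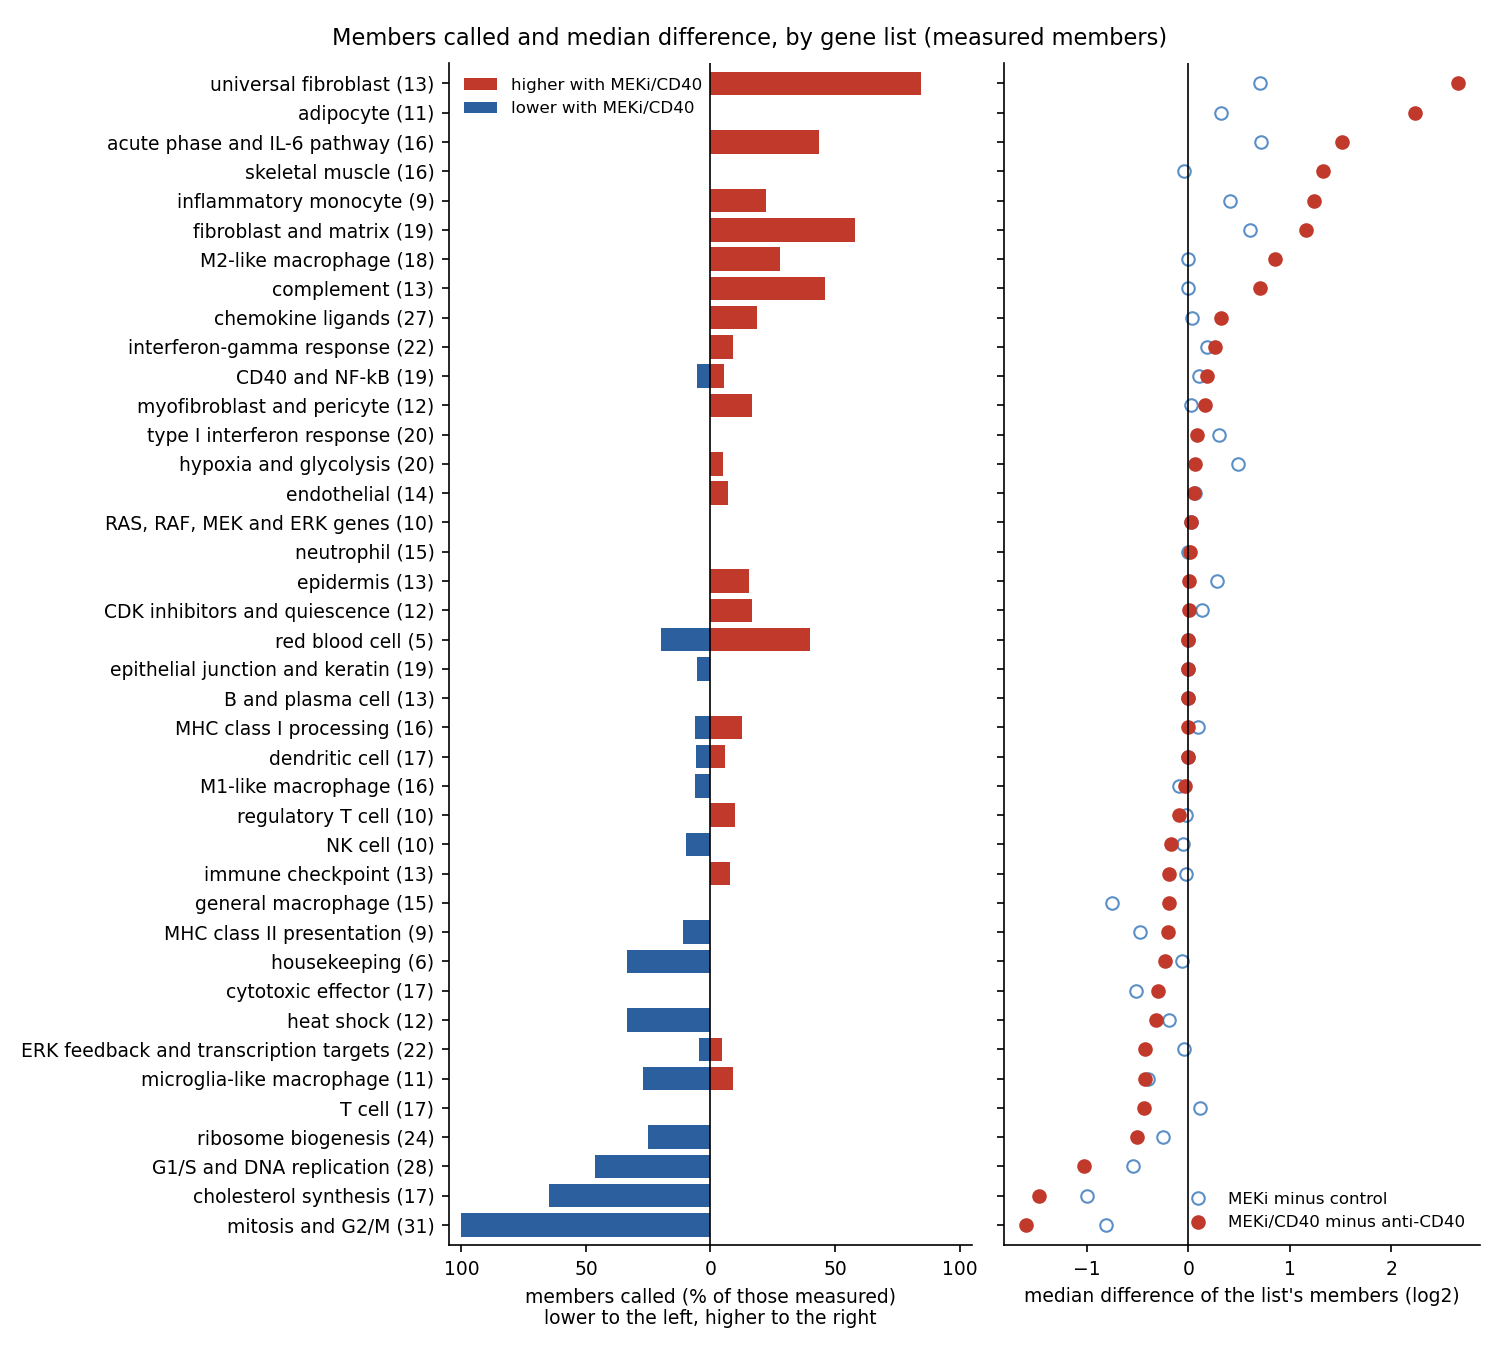
Members called and median difference by gene list (rows). Left, bars give the share of measured members called lower or higher with MEKi/CD40 against anti-CD40 (n = 4 per group). Right, points give the median log2 difference of the members. Filled points are MEKi/CD40 minus anti-CD40 and open points MEKi minus control (n = 5 per group). All 31 mitosis genes were called lower and 11 of 19 fibroblast and matrix genes higher. The T cell and general macrophage lists have 0 called (1 and 2 at an unadjusted p under 0.05 in limma).

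Some genes that sense or carry inflammation were also higher, and whole-tumour RNA does not tell in which cells. Of 16 acute-phase and IL-6 pathway genes 7 were higher, 0 lower, with a median of 1.52. Il6st (gp130), the shared signalling receptor of the IL-6 family, read 10.18, 10.10, 10.05 and 10.29 against 11.65, 11.62, 11.58 and 11.48, a rise of 1.43 ± 0.06 (adjusted p = 0.00132) with little spread in either group. Osmr, its partner for oncostatin M, rose by 2.04 ± 0.16 (adjusted p = 0.00269). Il1r1, the receptor for IL-1, read 4.46, 4.25, 5.22 and 5.01 against 7.30, 7.74, 9.05 and 7.82 (3.24 ± 0.43, adjusted p = 0.00707). The list's count was 3 without anti-CD40 2 or MEKi/CD40 2, and 4 without anti-CD40 1, anti-CD40 4, MEKi/CD40 1 or MEKi/CD40 4. It was 3 without MEKi/CD40 2 and 4 together and 3 with the adipocyte score as covariate.

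Of 13 complement genes 6 were higher and 0 lower (median 0.70), and the members that rose were the proteases and regulators rather than the C1q chains that macrophages make, none of which passed (differences of -0.44 to -0.18). The regulator Cd55, which speeds the decay of the C3 convertases, read 2.75, 2.41, 2.47 and 3.01 against 6.74, 7.52, 6.88 and 5.89 (4.10 ± 0.35, adjusted p = 0.00284). The protease C1s1 read 9.16, 9.25, 9.11 and 10.57 against 12.50, 12.08, 12.43 and 12.09 (2.75 ± 0.36, adjusted p = 0.00681), C1ra rose by 2.18 ± 0.29, and factor B (Cfb) by 1.25 ± 0.18. The complement count was 4 without anti-CD40 1, 2 or 4 or MEKi/CD40 2, 3 without MEKi/CD40 2 and 4 together, and the median was 0.36 without MEKi/CD40 3.

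Macrophage genes did not move as a block. Of 15 general macrophage markers 0 passed in limma (2 at an unadjusted p under 0.05) with a median of -0.19, and their mean was 10.02 to 10.35 in the anti-CD40 tumours and 9.60 to 10.85 in the MEKi/CD40 tumours. Without MEKi/CD40 3, 4 of them were called lower and the median was -0.37, without MEKi/CD40 4 it was 1, and with dim probe sets left out 2. The median was -0.03 without MEKi/CD40 1, -0.10 without anti-CD40 2 and -0.32 without anti-CD40 1. The smallest p-values were those of the chemokine receptor Cx3cr1 (-1.72 ± 0.60, adjusted p = 0.136) and Aif1 (-0.95 ± 0.33, adjusted p = 0.139).

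Of 18 M2-like markers 5 were higher and 0 lower (median 0.86). The hyaluronan receptor Lyve1 was at the floor in the anti-CD40 tumours (2.16 to 2.25) and read 6.19, 8.59, 6.33 and 8.09 with the inhibitor (at least 19.7-fold, adjusted p = 0.00527). The haemoglobin scavenger receptor Cd163 read 2.16, 2.16, 2.24 and 2.16 against 5.06, 7.32, 8.97 and 7.73 (at least 19.3-fold, adjusted p = 0.0116). The lectin Clec10a was at least 5.69-fold higher (adjusted p = 0.00906), and Maf, a transcription factor of resident macrophages, rose by 0.85 ± 0.14. The remaining member called was the folate receptor Folr2 (2.69 ± 0.49, adjusted p = 0.0188), named after its values were seen, which lost its call without anti-CD40 2 or MEKi/CD40 2 or 4 (adjusted p up to 0.0608).

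The best-known M2 markers did not pass. Mrc1 (CD206) read 8.02, 8.44, 8.09 and 9.31 against 8.43, 8.36, 11.15 and 9.39, with overlapping groups and a single high tumour, MEKi/CD40 3 (0.87 ± 0.69, adjusted p = 0.625). Arg1 differed by 0.91 ± 0.69 (adjusted p = 0.599). Without MEKi/CD40 3 the median of the M2-like list was 0.32, with 5 still called. With the adipocyte score as covariate 1 was called, at a median of 0.98, and 2 were without MEKi/CD40 2 and 4.

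M1-like markers gave 1 fall among 16, against 9.1% of all genes (median -0.04). This was Il12b, the p40 chain of IL-12 and IL-23, which read 5.71, 5.67, 5.78 and 4.53 against 2.79, 3.79, 3.42 and 3.48 (-2.05 ± 0.35, adjusted p = 0.016). It lost its call without anti-CD40 2 or 3 (adjusted p up to 0.057). Nos2 was at 2.16 on all 8 arrays, so the array gave no level for it. The index Nos2 minus Mrc1 was -6.31 ± 0.59 (SD) in anti-CD40 and -7.17 ± 1.30 in MEKi/CD40 tumours (exact two-sided permutation test, p = 0.257, adjusted over 2 indices 0.429). With Nos2 at the floor it follows Mrc1 alone.

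Of 11 microglia-like macrophage markers 3 were lower and 1 higher. P2ry12, an ADP receptor of microglia and some tissue macrophages, read 6.76, 7.54, 7.19 and 7.60 against 3.15, 3.80, 3.73 and 5.49 (-3.23 ± 0.52, adjusted p = 0.0132). P2ry13 (-2.15 ± 0.52, adjusted p = 0.0463) and Fcrls (-2.22 ± 0.54, adjusted p = 0.0479) were the other falls, and the rise was Sparc, which the fibroblast list also holds. P2ry13 lost its call without anti-CD40 2, 3 or 4 or MEKi/CD40 1, 2 or 3 (adjusted p up to 0.127), and Fcrls on leaving out any tumour but MEKi/CD40 4 (up to 0.131). Without MEKi/CD40 2 and 4 together the list had 0 higher and 1 lower in limma, and with the adipocyte score as covariate 1 higher and 0 lower. Of 9 inflammatory monocyte genes 2 rose, Plac8 (10.18 to 10.51 against 11.66 to 12.63, 1.78 ± 0.21, adjusted p = 0.00553) and fibronectin (Fn1, 0.57 ± 0.09), which fibroblasts also make. Of 15 neutrophil genes 0 passed (2 at an unadjusted p under 0.05), and S100a8 read 4.76 to 7.33 against 7.51 to 10.79 (3.15 ± 0.86, adjusted p = 0.0698). The neutrophil median was 0.02, with 6 of the 15 at the floor on all 8 arrays. With dim probe sets left out it was 1.03 and 2 neutrophil genes were called higher.

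Chemokine ligands rose as a subset, 5 of 27 against 5.67% of all genes, with 0 lower and a list median of 0.32. Without MEKi/CD40 3 the median was 0.04 with 6 higher and 1 lower, it was 0.58 without MEKi/CD40 1 and 0.51 without MEKi/CD40 2, and without MEKi/CD40 2 and 4 together 3 were higher. The neutrophil attractant Cxcl1 read 8.24, 8.91, 7.82 and 8.56 against 12.19, 11.57, 12.43 and 11.09 (3.44 ± 0.37, adjusted p = 0.00432). Cxcl5, which binds the same receptor, was at the floor in the anti-CD40 tumours (2.16 to 2.19) and read 8.08, 7.06, 8.51 and 5.14 with the inhibitor (at least 18.3-fold, adjusted p = 0.00943). Cxcl12, the stromal ligand of CXCR4, read 5.95, 5.91, 7.28 and 7.40 against 10.93, 10.88, 12.29 and 10.29 (4.46 ± 0.57, adjusted p = 0.00659).

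Ccl6, a chemokine of mouse myeloid cells, read 8.08, 8.33, 9.23 and 8.38 against 11.62, 11.98, 13.48 and 11.92 (3.75 ± 0.47, adjusted p = 0.00639). For these 4 the groups did not overlap, and MEKi/CD40 3 read the highest of its group. The eosinophil attractant Ccl11, named after its values were seen, rose by 4.62 ± 1.06 (adjusted p = 0.0403), a call lost on leaving out any tumour but anti-CD40 3 (adjusted p up to 0.11). The T cell attractant Cxcl9 differed by -0.38 ± 0.43 with overlapping groups (adjusted p = 0.691).

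Lymphocyte genes gave few calls. None of 17 T cell genes, 17 cytotoxic effector genes or 13 B and plasma cell genes passed in limma in either direction, with medians of -0.44, -0.30 and 0. At an unadjusted p under 0.05 the counts were 1, 5 and 3. With dim probe sets left out 5 cytotoxic effector genes and 1 T cell gene were called lower, and 1 B and plasma cell gene in each direction. Without anti-CD40 1, 2 cytotoxic effector genes and 1 T cell gene were called lower, and 1 cytotoxic effector gene was without MEKi/CD40 2. In the B and plasma cell list 1 was higher without MEKi/CD40 3 and 1 lower without MEKi/CD40 4. The T cell median was -0.87 without anti-CD40 1, -0.80 without MEKi/CD40 3 and -0.27 without MEKi/CD40 2, and the cytotoxic median -0.65 without MEKi/CD40 3, -0.56 without anti-CD40 1, -0.20 without anti-CD40 2 and -0.10 without anti-CD40 4. A second probe set of Cd247, the T cell receptor zeta chain, was called lower (-1.05, adjusted p = 0.0455), named after its values were seen. Cd8a read 6.78, 8.68, 8.26 and 8.60 against 7.32, 6.58, 8.43 and 7.94 (-0.51 ± 0.58, adjusted p = 0.7). The granzymes Gzmk (6.86, 9.54, 8.96 and 7.99 against 5.30, 4.85, 6.59 and 6.01, -2.65 ± 0.68, adjusted p = 0.0582) and Gzmb (-1.29 ± 0.36, adjusted p = 0.0744) did not overlap between the groups but missed the threshold. The other granzymes, given after their values were seen, were not called either. Gzma was lower (-2.05), while Gzmc (0.17), Gzmd (1.39), Gzme (1.18), Gzmf (1.14) and Gzmg (1.88) differed the other way.

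Ifng differed by -0.06 ± 0.81 and spread from 4.36 to 7.71 within MEKi/CD40. Foxp3 was at the floor on all 8 arrays, so the index Cd8a minus Foxp3 follows Cd8a alone. It was 5.62 ± 0.88 (SD) and 5.19 ± 0.69 (exact two-sided permutation test, p = 0.429 before and after adjustment over 2 indices). Of 10 regulatory T cell genes 1 was higher, Nrp1 (neuropilin-1, 10.24 to 10.88 against 11.43 to 11.79, 1.06 ± 0.15, adjusted p = 0.0091), which endothelial cells and dendritic cells express as well. Of 10 NK cell genes 1 was lower, the receptor Cd244a (7.31, 6.64, 7.18 and 7.42 against 4.85, 4.91, 5.85 and 5.38, -1.89 ± 0.28, adjusted p = 0.0102). The shares over all genes were 5.67% higher and 9.1% lower.

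The target of the antibody, Cd40, read 7.67, 7.76, 7.93 and 7.64 against 6.65, 6.68, 8.46 and 7.38, an overlap with no call (-0.46 ± 0.42, adjusted p = 0.625). Of 19 genes of CD40 and NF-kB signalling 1 rose, the NF-kB subunit Rela (10.59 to 10.71 against 11.02 to 11.11, 0.39 ± 0.03, adjusted p = 0.00269), and 1 fell, the adaptor Traf5 (8.27, 8.08, 7.81 and 8.06 against 6.86, 6.83, 7.02 and 6.99, -1.13 ± 0.10, adjusted p = 0.00306). Both sets of values lay apart with narrow spread. Over all genes 5.67% were called higher and 9.1% lower, so 1 call each way in this list is near the background. Of 22 interferon-gamma response genes 2 were higher, the kinase Jak1 (0.53 ± 0.06, adjusted p = 0.00412) and Gbp6 (1.05 ± 0.26, adjusted p = 0.0499), and of 20 type I interferon genes 0 passed (4 at an unadjusted p under 0.05).

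Of 16 MHC class I genes the class I heavy chain H2-K1 (0.16 ± 0.02, adjusted p = 0.00829) and the chaperone Calr (0.34 ± 0.03, adjusted p = 0.00308) were higher and the proteasome activator Psme1 lower (-0.38 ± 0.08). Of 9 class II genes the thiol reductase Ifi30 was lower (-0.86 ± 0.19). Of 13 checkpoint genes Cd276 (B7-H3) was higher (1.30 ± 0.31), and Cd274 (PD-L1) read 8.83 to 9.36 against 9.37, 8.68, 11.70 and 9.40 (0.68 ± 0.65, adjusted p = 0.625), with MEKi/CD40 3 alone high. Of these, Gbp6 and Psme1 lost their calls on leaving out any tumour but MEKi/CD40 3 (adjusted p up to 0.137 and 0.102), Ifi30 without anti-CD40 2, 3 or 4 or MEKi/CD40 1, 2 or 4 (up to 0.11), and Cd276 on leaving out any tumour but anti-CD40 4 (up to 0.127). Among 17 dendritic cell genes the fall was Il12b again and the rise the actin bundler Fscn1 (0.26 ± 0.05), which lost its call without anti-CD40 1, 2 or 3 or MEKi/CD40 2 (up to 0.0601). The counts of these lists stand beside 5.67% of all genes called higher and 9.1% lower.

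Heat shock genes encode the chaperones that fold new and damaged proteins. Of 12 measured, 4 were lower and 0 higher (median -0.32), and without MEKi/CD40 3 the count was 6 lower and 1 higher, while it was 2 lower without anti-CD40 1, 2 or 3 or MEKi/CD40 4, and 1 lower without MEKi/CD40 2 and 4 together or with the adipocyte score as covariate. Hspa1a, the inducible Hsp70, read 9.51, 7.98, 8.61 and 7.76 against 4.54, 5.40, 4.47 and 4.11, and Hspe1, a mitochondrial co-chaperone, fell by 0.57 ± 0.09 (adjusted p = 0.0107). Hspd1 (-0.60 ± 0.11) and Dnajb1 (-0.33 ± 0.08) were the others. Hspd1 lost its call without anti-CD40 1, 2 or 3 or MEKi/CD40 1 or 4 (adjusted p up to 0.0607) and Dnajb1 on leaving out any anti-CD40 tumour or MEKi/CD40 2 or 4 (up to 0.132). With cyclic loess normalization 2 of the 12 were called higher and 3 lower. Of 20 hypoxia and glycolysis genes 1 was higher, against 5.67% of all genes. This was the phosphofructokinase Pfkp (0.52 ± 0.13, adjusted p = 0.0456), a call lost when any tumour but MEKi/CD40 4 was left out (up to 0.129).

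**Figure D3:**
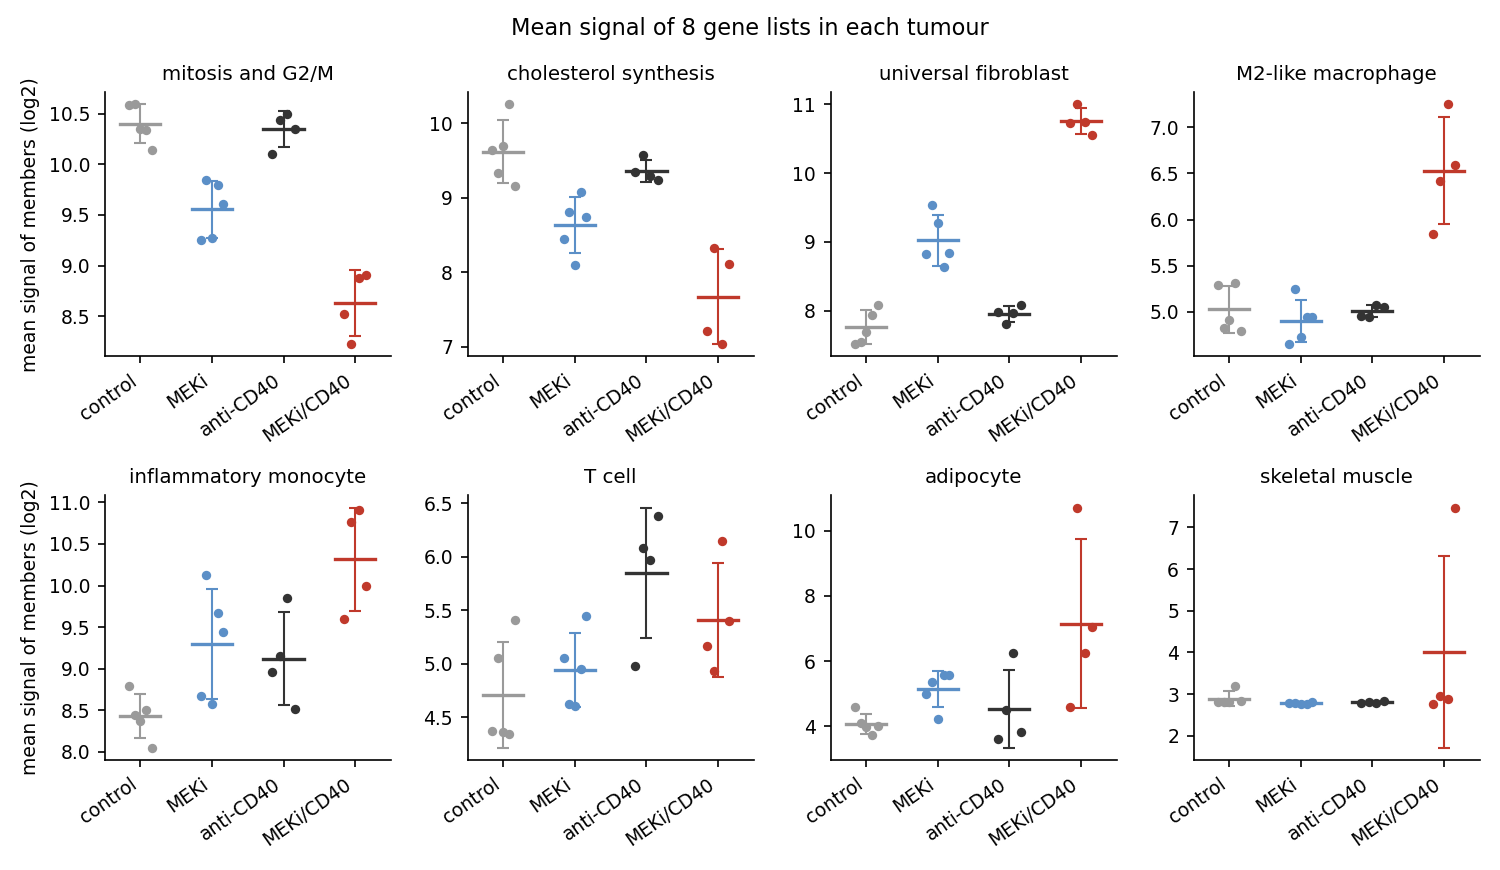
Mean log2 value of the members measured in selected gene lists (vertical axis) in each tumour of the control, MEKi, anti-CD40 and MEKi/CD40 groups. Points are tumours (n = 5, 5, 4 and 4) and bars are means ± SD. From anti-CD40 to MEKi/CD40, mitosis is 10.10 to 10.50 against 8.22 to 8.91 and universal fibroblast 7.80 to 8.08 against 10.55 to 11.01. The adipocyte score of MEKi/CD40 2 (10.71) and the muscle score of MEKi/CD40 4 (7.48) stand above the other anti-CD40 and MEKi/CD40 tumours.

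Tissue next to the tumour was unevenly present. The 11 adipocyte genes had a median difference of 2.23 with 0 called in limma (2 at an unadjusted p under 0.05) and overlapping groups, and their mean was 3.59 to 6.24 in the anti-CD40 tumours against 4.60, 10.71, 6.25 and 7.04 in MEKi/CD40 1 to 4. Adipoq (adiponectin), which only fat cells make in quantity, read 2.25, 2.75, 8.39 and 2.32 against 2.47, 13.30, 6.93 and 10.34 (4.33 ± 2.69, adjusted p = 0.459), so MEKi/CD40 2 and 4 were high, anti-CD40 3 and MEKi/CD40 3 intermediate and the other 4 at or near the floor. Of 16 skeletal muscle genes 0 passed (0 at an unadjusted p under 0.05). Their mean was 2.76 to 2.95 in 7 tumours and 7.48 in MEKi/CD40 4, where the actin Acta1 read 10.77 (2.29 to 3.80 elsewhere). Without MEKi/CD40 2 and 4 the universal fibroblast and matrix medians were 2.64 and 1.12, against 2.66 and 1.16 with them, and the calls fell from 11 to 3 in each list. The part of adjacent tissue in the results was not tested.

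Of 13 epidermal genes 2 were higher, Sbsn (suprabasin, 5.25 to 7.05 against 8.91 to 9.93, adjusted p = 0.00715) and Dmkn (at least 3.43-fold), the second lost on leaving out any anti-CD40 tumour or MEKi/CD40 1 or 3 (adjusted p up to 0.098), and 8 of the 13 were at the floor on all 8 arrays. Of 5 red blood cell genes, Alas2, the first enzyme of haem synthesis in erythroid cells, was 2.17 to 2.63 against 5.63 to 7.15 (at least 9.16-fold, adjusted p = 0.00286), the band 3 protein Slc4a1 was at least 1.11-fold higher and the globin Hba-a2 was lower (-0.91 ± 0.18). Slc4a1 lost its call when any tumour but MEKi/CD40 2 was left out (adjusted p up to 0.0842) and Hba-a2 without anti-CD40 2, 3 or 4 or MEKi/CD40 1 or 2 (up to 0.0793). Of 19 epithelial junction and keratin genes 1, Spint1, was lower and 13 were at the floor on all 8 arrays, 11 of them by every probe set of the gene. The exceptions were Epcam and Spint2, named after their values were seen, each with another probe set above the floor (5.45 against 6.07 for Epcam and 5.37 against 5.10 for Spint2, group means). Of 14 endothelial genes 1 was higher, the angiopoietin receptor Tek (2.23 ± 0.55, adjusted p = 0.0498), a call lost when any tumour but MEKi/CD40 1 was left out (up to 0.134). Among all genes 5.67% were called higher and 9.1% lower.

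The 3′ minus 5′ signal of the Actb control probe sets was 0.32 to 0.37 against 0.37 to 0.43 (exact two-sided permutation test, p = 0.0571) and that of Gapdh -0.27 to -0.23 against -0.22 to -0.16 (p = 0.0286, the smallest that 4 against 4 allows), both 0.0571 after adjustment over the 2 ratios. The 3′ excess was thus 0.06 larger on the log2 scale in the MEKi/CD40 group for both control genes, and its part in the results was not tested. Of 6 housekeeping genes, Hprt (-0.29 ± 0.03, adjusted p = 0.00285) and the TATA-binding protein Tbp (-0.62 ± 0.11, adjusted p = 0.0201) were lower and the median was -0.23. Tbp lost its call on leaving out any anti-CD40 tumour or MEKi/CD40 4 (adjusted p up to 0.0674).

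Did the inhibitor act alike without the antibody? The comparison of MEKi (n = 5) with control (n = 5) shares no arrays with that of MEKi/CD40 and anti-CD40. There 1079 genes were called higher (5.93%) and 916 lower (5.03%). Of the 1031 genes called higher with the antibody, 959 (93%) had the same sign without it and 387 (37.5%) were called. Of the 1656 called lower 1558 (94.1%) had the same sign and 485 (29.3%) were called. Over all genes the share was 74.5%, where a difference of exactly 0 in both comparisons counted as the same sign. With many genes at the floor, it is not a share of genes that moved alike. The genes were picked in the first contrast, so the median difference is a description. It was 0.785 with and 0.366 without the antibody for genes called higher, and -0.58 and -0.25 for genes called lower.

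**Figure D4:**
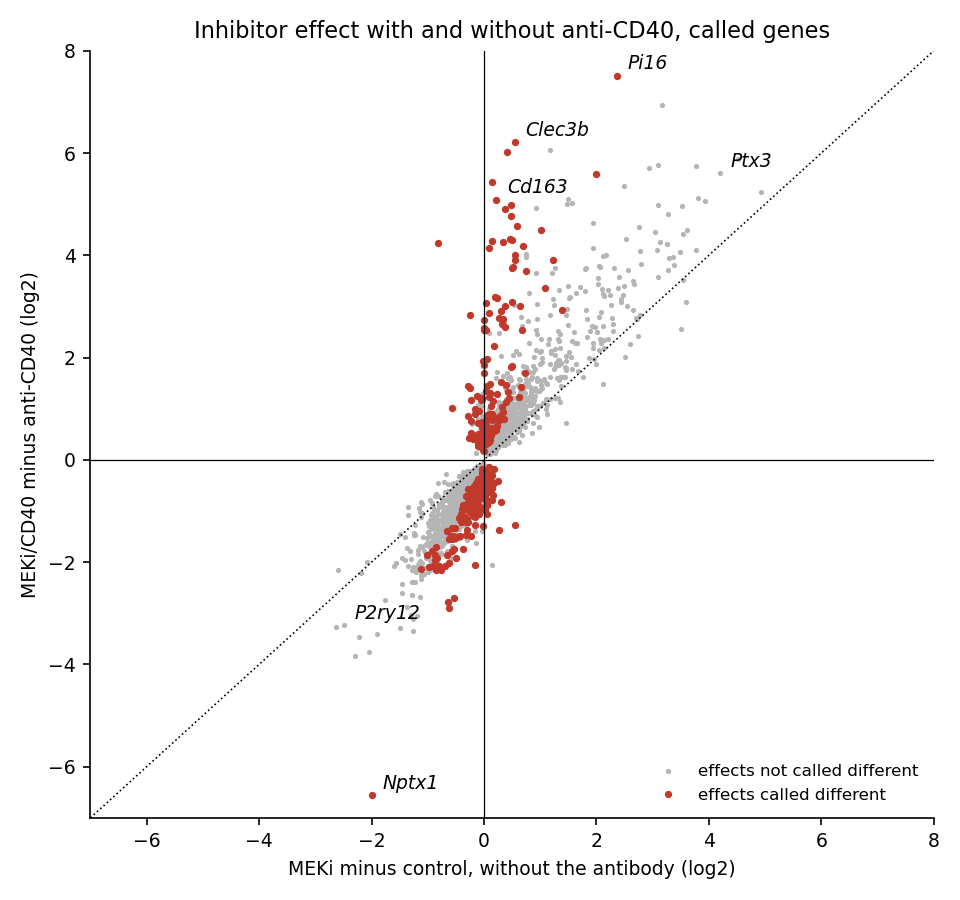
Fitted log2 effect of MEKi without the antibody (horizontal axis, MEKi minus control, n = 5 and 5) and with it (vertical axis, MEKi/CD40 minus anti-CD40, n = 4 and 4). Each point is a gene called between MEKi/CD40 and anti-CD40, and genes not called there are left out. Red points are genes whose effects were called different, and the dotted diagonal marks equal effects. Pi16 (2.36 and 7.52) and Clec3b (0.55 and 6.21) lie well above the diagonal, and Nptx1 (-1.99 and -6.56) below it.

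The difference between both effects was itself tested over all 18 arrays. It passed for 1191 probe sets, 479 positive and 712 negative, and for 450 genes (2.47%). Clec3b had a fitted effect of 6.21 with and 0.55 without the antibody (difference of effects 5.66 ± 0.48, adjusted p = 0.000106). Tnxb differed by 5.60 ± 0.54 (adjusted p = 0.000284) and Pi16 by 5.16 ± 1.03 (adjusted p = 0.0189). Close behind in p among positive differences were the procollagen C-proteinase enhancer Pcolce2 (4.14 ± 0.35), the ficolin Fcna (3.99 ± 0.37), the ectonucleotidase Enpp3 (2.79 ± 0.23) and Cmah (2.57 ± 0.22), all 4 at the floor in the anti-CD40 tumours. Fitted differences of genes at the floor are not exact.

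Of the universal fibroblast list 4 genes had a called positive difference and of the matrix list 2, Col5a1 (0.90, adjusted p = 0.0288) and Col14a1 (adjusted p = 0.00843). Beside Pi16 and Clec3b, the universal fibroblast genes were Dpp4 and Anxa3, which like Col14a1 were named after their values were seen. Col1a1 rose in both settings, by 4.96 with and 3.52 without the antibody (difference 1.44 ± 0.66, adjusted p = 0.328). Il6st rose by 1.43 and 0.65 (difference 0.77, adjusted p = 0.0137), Ccl6 by 3.75 with a value of 0.50 without (difference 3.25 ± 0.55, adjusted p = 0.0099), and Nrp1 by 1.06 with 0.12 without (0.94, adjusted p = 0.0227). Rela differed between the settings by 0.29 (adjusted p = 0.0353) and Myl9 by 2.23 (adjusted p = 0.0237).

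Of 18 M2-like genes 4 had a called difference of effects and of 16 M1-like genes 1, while 0 of 15 general and 0 of 11 microglia-like macrophage genes passed in limma (2 and 2 at an unadjusted p under 0.05). Mrc1 averaged 10.13 in control tumours and 7.33 with MEKi, a fall of 2.80 ± 0.31 (adjusted p = 0.00469), whereas with the antibody it was 8.46 without and 9.33 with the inhibitor, and the difference of effects was 3.67 ± 0.72 (adjusted p = 0.017). Cd163 differed by 4.87 ± 0.73 (adjusted p = 0.00578), with 0.22 for MEKi against control. Chosen after their values were seen, Stab1, a scavenger receptor, differed by 2.14 (adjusted p = 0.0281), and Retnla, a product of alternatively activated macrophages, by 4.76 (adjusted p = 0.0356). Retnla was at 2.16 in the anti-CD40 tumours and at 4.63, 10.22, 5.31 and 7.52 in the MEKi/CD40 tumours. It was not called between these groups. The MEKi/CD40 tumours ranked in the same order for Retnla and for the adipocyte score, and the part of fat in its values was not tested.

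The named negative differences included Nptx1, Anln and Prc1. Nptx1 fell by 6.56 with and 1.99 without the antibody (difference -4.58 ± 0.58, adjusted p = 0.00296). Anln fell by 1.48 and 0.59 (difference -0.89 ± 0.11, adjusted p = 0.00296) and Prc1 by 1.70 and 0.85 (difference -0.85 ± 0.17, adjusted p = 0.0184). Of the 31 mitosis genes 30 were called lower without the antibody too, at a median of -0.82, and 7 had a called negative difference, Cdc25c among them (-1.40, adjusted p = 0.0298). The tRNA deaminase Adat2 differed by -0.91 ± 0.10 (adjusted p = 0.00119), the CCR4-NOT deadenylase Cnot7 by -0.80 ± 0.10 and the chromatin remodeller subunit Ino80c by -0.83 ± 0.11.

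Il12b differed by -1.89 ± 0.37 (adjusted p = 0.0173) and Gzmk by -2.70 ± 0.61 (adjusted p = 0.0337), and both were low in control and MEKi tumours (means of 3.07 and 2.90 for Il12b, 4.71 and 4.76 for Gzmk). In the red blood cell list Alas2 (2.68), Slc4a1 (0.73) and Hba-a2 (-0.74) differed as well. Of the cholesterol genes 0 had a called difference (6 at an unadjusted p under 0.05), with median effects of -1.47 with and -1.0 without the antibody. The count of 1191 fell to 56 when the 2 control and 2 MEKi tumours of the lower animal numbers alone stood for the comparison without antibody, and leaving out single arrays gave 618 to 1431, 10 of the 18 omissions cutting it by more than 1.5 times (control 2, 3 and 5, each anti-CD40 tumour, and MEKi 2, 4 and 5).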

How the data were processed

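RNA of whole MC38 tumours (RNA integrity above 8 by the study's methods) was hybridised to 18 single-colour Affymetrix Mouse430_2 arrays in 4 groups, read from the sample labels. The authors deposited log2 intensities with 2 decimals for each probe set on each array, from RMA in Chipster (version not given in the sources used here). These log2 values run from 2.16 to 16.34 and 34.5% of them equal the lowest value, unlike plain RMA output, so the background step is uncertain, and differences of dim genes are compressed or cannot be read. The number of arrays limits the precision.

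The table lists 45101 probe sets, 64 of them hybridisation controls that were dropped, and no filter on brightness was applied. Symbols came from the platform annotation (34945 probe sets with 1 symbol, 932 with several, 9160 with none), and 34741 matched by gene identifier with 0 changed. A gene is given by its probe set with the highest mean over 18 arrays, sets marked _x_ or _s_ passed over where another existed. A value was counted at the floor below 3, or within 0.3 of a value below 6 that at least 6 arrays repeat. "At least" folds divide the brighter mean by the mean of a group whose 4 arrays all lie at the floor, after values below 3 were raised to 3.

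The 4 MEKi/CD40 and 4 anti-CD40 arrays were compared with limma 3.58.1 (R 4.3.3, statmod 1.5.0, lmFit and eBayes, two-sided, Benjamini-Hochberg over 45037 probe sets), with 6 residual and 0.351 prior degrees of freedom. The difference of the inhibitor's effects used all 18 arrays (14 and 0.393). Each array is a different animal. The code was tested on simulated data. Single ratios and indices had exact permutation tests. The 40 gene lists (687 entries, 652 genes, 593 measured) were written from general knowledge and are described only by counts and medians. A list score averages the log2 values of the members on the array. Members, lists and tests were chosen with earlier results of these data known.

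Named are the 10 largest higher and 10 largest lower genes that were called (adjusted p under 0.05) without overlap between groups (predicted symbols passed over), up to 4 called members per list in order of p or else the 2 with the smallest p, 20 fixed genes, and the 5 smallest p per direction of the difference of effects. Not all are given. The text marks genes outside this rule. Alternatives were other normalizations, filters, moderation, blocks, a covariate and leaving out arrays.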

Additional observations from a re-analysis of the deposited data

Results flagged for a closer look

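In each group of 4 tumours, named genes and list scores were searched for a tumour that stood apart from the other 3. Of 305 group and measure pairs examined, 13 showed this, and chance gives about 1 in 20. In the anti-CD40 group, tumour 1 was low for Mki67 (10.93, others 11.47 to 11.54), Cfb (10.46, others 10.90 to 10.99) and the general macrophage score (10.02, others 10.32 to 10.35). Tumour 3 of that group was high for Hspe1 (12.49, others 12.31), Adipoq (8.39, others 2.25 to 2.75) and the M1-like score (6.88, others 6.52 to 6.58). Tumour 4 was high for C1s1 (10.57, others 9.11 to 9.25) and low for Il12b (4.53, others 5.67 to 5.78).

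In the MEKi/CD40 group, tumour 1 was low for Spry4 (5.40, others 6.62) and Pcolce2 (5.83, others 7.15 to 7.42). Tumour 3 was high for the complement score (11.12, others 10.24 to 10.35) and the chemokine score (9.46, others 7.72 to 8.01), and tumour 4 for the skeletal muscle score (7.48, others 2.76 to 2.95).

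The inhibitor's effect differed between mice with and without anti-CD40 (limma, all 18 arrays, adjusted p under 0.05) for the named genes listed here, each with the effect with the antibody minus that without it. Among fibroblast and matrix genes it was 5.66 for Clec3b, 5.60 for Tnxb, 5.16 for Pi16, 4.14 for Pcolce2, 2.83 for Col14a1, 2.34 for Dpp4, 2.23 for Myl9, 0.90 for Col5a1 and 0.61 for Anxa3. Among macrophage and immune genes it was 4.87 for Cd163, 4.76 for Retnla, 3.99 for Fcna, 3.67 for Mrc1, 3.25 for Ccl6, 2.14 for Stab1, 0.77 for Il6st, 0.29 for Rela, -1.89 for Il12b and -2.70 for Gzmk. Among the remaining genes it was 2.79 for Enpp3, 2.68 for Alas2, 2.57 for Cmah, 2.05 for Tek, 0.94 for Nrp1, 0.73 for Slc4a1, -0.74 for Hba-a2, -0.80 for Cnot7, -0.83 for Ino80c, -0.85 for Prc1, -0.89 for Anln, -0.91 for Adat2, -1.40 for Cdc25c and -4.58 for Nptx1.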

How the results depend on the processing

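The 5231 probe sets called between MEKi/CD40 and anti-CD40 became 8996 with all 18 arrays sharing the spread, 3310 with trend and robust moderation, 2296 without MEKi/CD40 2 and 4 together, 2215 with the adipocyte score as a covariate, and 2704 to 6594 on leaving out 1 array. Other normalizations, a filter on dim probe sets and raising low values to 3 kept the count within 1.5 times. With the replicate number of the titles as a replicate block it was 1276. The numbers pair nothing by the labels, and deviations of same-numbered tumours correlated at 0.18, 0.0014, 0.231 and 0.0329. Numbers 1 and 3 were closest to their own number, and 2 and 4 were not. Whether same-numbered tumours share anything more was not tested. Under that block 35 of the 99 named genes called kept their call.

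The 1191 differences of effects became 1892 with dim probe sets left out, 56 with low animal numbers alone, 707 with the replicate block, and 618 to 1431 on leaving out 1 array. The cause of these shifts was not tested, beyond fewer arrays in the smaller fits.

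Of the 99 named genes called, none changed sign under any alternative run, and those still called numbered 94 with cyclic loess, 98 with quantile normalization, 99 with a shift to the same 75th percentile, 89 of 90 with dim probe sets left out, 91 with low values raised to 3, 97 with all 18 arrays, 86 with trend and robust moderation, 50 without MEKi/CD40 2 and 4, 58 with the covariate, 95 with the mean of a gene's probe sets, and 66 to 88 on leaving out 1 array. Without MEKi/CD40 2 and 4, 299 of the 1031 genes called higher and 649 of the 1656 called lower kept their call, and all 2687 kept their sign. These genes were picked by their calls in the same arrays. Where the groups do not overlap, leaving out arrays cannot change the sign, so the kept signs are a description. Uncalled genes changed sign as follows. Spry4 was 0.015 without MEKi/CD40 1 (-0.39 to 0.015 on leaving out 1 array). Ifng was 0.65 without MEKi/CD40 2 and 4, 0.40 with the covariate, and -0.66 to 0.46 on leaving out 1 array (positive without anti-CD40 3 or 4 or MEKi/CD40 1 or 2). With the covariate Foxp3 was 0.028 and Adipoq -0.40.

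Of 760 list medians under alternatives, 30 moved by more than the spread between tumours, among them those of the adipocyte list to 0 without MEKi/CD40 2 and 4 and of the universal fibroblast list to 1.54 with the mean of all probe sets. Leaving out 1 array, an alternative chosen for these ratios and indices after seeing the data, gave 0.05 to 0.08 for Actb and 0.05 to 0.07 for Gapdh 3′ minus 5′ differences, -0.87 to -0.18 for Cd8a minus Foxp3 and -1.19 to -0.26 for Nos2 minus Mrc1. With 53.2% to 55.2% of probe sets at the floor on each array, low transcripts such as Nos2 and Foxp3 could not be compared.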
